A study of Mus musculus with 16 samples.

Results

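Marker genes of the hippocampal subfields were followed across RNA-seq libraries of whole mouse hippocampus. The set lists 35 genes: 8 of area CA1, 12 of areas CA2 and CA3, and 15 of the dentate gyrus. A gene entered when the name column of the deposited expression table equalled its symbol, and loci that carry the same name were summed. By this rule 34 of the 35 were found among 22572 names. Zbtb20, a repressor that helps set CA1 identity, occurs in the table only in an entry merged with a microRNA gene. That entry, not counted as a member, ranged from 8.99 to 13.2 FPKM.

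All 16 libraries came from the hippocampus of male C57BL/6 mice. The 4 groups, of 4 libraries each, were wild type on regular water (WTCtrl), wild type on fructose (WTFru), Bgn knockout on regular water (BgnCtrl) and Bgn knockout on fructose (BgnFru). Fructose was given as a 15% (w/v) solution in place of plain water for 6 weeks, from an age of 3 months. The Bgn protein, biglycan, is a proteoglycan of the extracellular matrix. The gene lies on the X chromosome, the knockout genotype is written Bgn0/- in the labels, and the deleted stretch is not stated in the labels. Whether the 4 libraries of a group came from separate animals is not said in the labels, so the tests see the spread among libraries only, and that spread may be technical.

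The hippocampus is a chain of cell fields. Granule cells of the dentate gyrus send mossy fibres to the pyramidal cells of CA3, which project to CA1, the main output of the circuit, while the small CA2 field lies between CA3 and CA1. Each field has its own set of strongly expressed genes, among them Wfs1 for CA1, Rgs14, Pcp4 and Amigo2 for CA2, and Prox1 for granule cells. In RNA from the whole structure, fewer cells of a field and less RNA per cell cannot be told apart. The assignment of a gene to a field is background knowledge and was not measured in these libraries.

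Levels are given in FPKM, fragments per kilobase and per library size, and so they can be compared between genes per length. FPKM carries no read depth, and no counting interval is given. Fold changes are differences of mean log2(FPKM + 1), which understates the change of genes with low levels. They are given with the standard error (SE) of limma, a linear model with a shared estimate of the spread, and with p-values adjusted over all 12648 names that had a mean of at least 1 FPKM. Of the 34 members found, 33 passed that filter. Map3k15, a kinase gene on the X chromosome, did not, with 0.321 to 1.45 FPKM. A member is called when its adjusted p is under 0.05.

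Bgn itself lay between 9.94 and 24.2 FPKM in WTCtrl, between 4.46 and 7.60 in BgnCtrl, and between 5.02 and 7.11 in BgnFru. WTFru replicates 2 to 4 had 17.2 to 21.2, but the library labelled WTFru replicate 1 had 5.42, inside the range of the knockout libraries. Bgn was lowest in replicate 1 of every group, at 9.94 FPKM in WTCtrl, 4.46 in BgnCtrl and 5.02 in BgnFru. Meningeal and fibroblast markers summed to 35.3 FPKM in the library labelled WTFru replicate 1, against 108 to 199 in the other wild-type libraries. What makes its Bgn low was not tested. The 4 libraries numbered 1 stand apart from the other 12: for 21.1% of tested names they did not overlap the others, and among the 33 tested members this held for C1ql3 and Calb1, both higher in replicate 1. Choroid plexus markers summed to 324 FPKM in the library labelled WTFru replicate 1 and to 10231 in BgnFru replicate 4. Between 12343 and 12885 names reached 1 FPKM in each library.

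The RefSeq (GRCm38.p6, the assembly also called mm10) sequences before the start sites of Wfs1, Iyd and Maml2 are shown. These are the 3 members that limma called between genotypes on fructose in the fit of all libraries. Each run is the 250 bases upstream of the RefSeq start on the strand of the gene. Matches to CCAAT, on either strand, are in capitals (ATTGG is CCAAT read on the other strand). Distances count from that start. GENCODE, the source of the gene positions below, starts Wfs1 at 36989205 and Iyd at 3540240, so these windows lie partly inside those genes. The Wfs1 window is chr5:36988983-36989232 on the minus strand, the Iyd window chr10:3540024-3540273 on the plus strand, and the window of the first of 2 Maml2 starts chr9:13297708-13297957 on the plus strand.
Wfs1: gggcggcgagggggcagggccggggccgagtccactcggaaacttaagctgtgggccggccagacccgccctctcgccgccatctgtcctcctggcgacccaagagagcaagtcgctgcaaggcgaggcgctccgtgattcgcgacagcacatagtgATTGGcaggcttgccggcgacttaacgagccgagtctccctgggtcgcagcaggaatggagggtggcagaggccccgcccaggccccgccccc
Iyd: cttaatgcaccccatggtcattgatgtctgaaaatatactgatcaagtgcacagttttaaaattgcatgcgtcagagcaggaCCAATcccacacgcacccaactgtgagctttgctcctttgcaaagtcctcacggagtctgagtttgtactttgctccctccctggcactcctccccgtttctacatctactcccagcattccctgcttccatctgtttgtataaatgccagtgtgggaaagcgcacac
Maml2: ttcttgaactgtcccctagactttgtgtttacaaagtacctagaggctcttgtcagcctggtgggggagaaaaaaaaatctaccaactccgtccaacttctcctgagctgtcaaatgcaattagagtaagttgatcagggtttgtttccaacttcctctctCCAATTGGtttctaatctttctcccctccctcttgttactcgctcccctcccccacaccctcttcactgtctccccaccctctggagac
CCAAT was found 93 bases before the start of Wfs1, 168 before that of Iyd, and at 89 and 86 in overlapping matches on both strands for Maml2. The window of the other Maml2 start held none. Of 32851 mouse promoter windows of the same length, 33.8% hold CCAAT. The GC box, GGGCGG, occurred 4 times in the Wfs1 window, on either strand, and not in the others (32.7% of windows). TATAAA stood 29 bases before the RefSeq start of Iyd and in neither of the others (12.4%). This match and the CCAAT of Wfs1 lie inside the genes as GENCODE places them. So do the GC boxes 185, 19 and 8 bases before the RefSeq start of Wfs1, but not the one at 250. TGACGTCA, the cAMP response element (1.55%), GCGNGGGCG, an EGR site (4.70%), and the endoplasmic reticulum stress response element (0.113%), were in none of the 3. The Wfs1 window was 69.6% G or C, against 48.4% for Iyd, 48.0% for Maml2 and a median of 52.4% over all windows.

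The members spanned a wide range of levels. Pcp4, which encodes a small calmodulin-binding peptide and marks CA2, was the highest with a mean of 306 FPKM over the 16 libraries. Mpped1 (87.1), Necab2 (82.2), Spock1 (78.1), Wfs1 (69.1), Nov (65.9) and C1ql3 (64.5) followed, and Iyd (1.97), Glis3 (1.91) and Map3k15 (0.673) were the lowest. Neighbours in this order, such as Mpped1 and Necab2, overlapped in their ranges over libraries (70.5 to 101 and 70.04 to 104 FPKM). The coefficient of variation over all libraries was smallest for Spock1 (6.32%), which encodes the proteoglycan testican-1, and Mpped1 (8.12%). It was under 15% for 12 members and over 30% for 4, namely Map3k15 (43.4%), Iyd (39.0%), Coch (34.4%) and Cacng5 (34.1%).

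**Figure D1:**
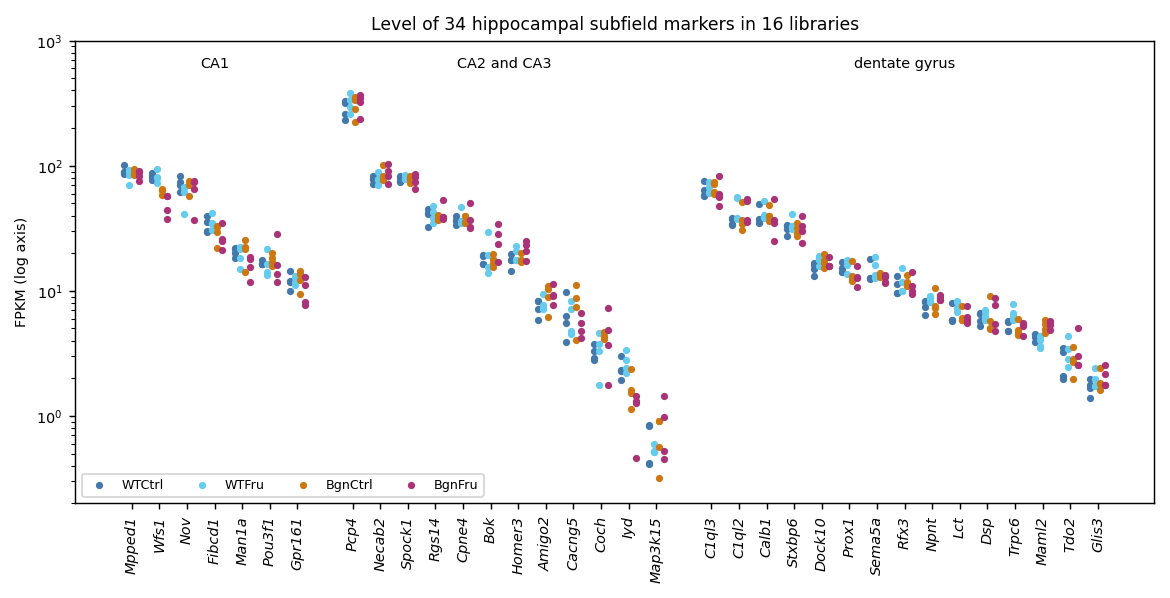
FPKM of the 34 members found, on a log axis, with 1 point per library coloured by group and members ordered by mean level within each subfield. Pcp4 is highest, at 226 to 381 FPKM, and Map3k15 lowest, at 0.321 to 1.45 FPKM.

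Comparing knockout with wild type on fructose asks whether the markers of any field differ when both genotypes received the sugar. In BgnFru against WTFru 3 of the 33 tested members were called: Wfs1 and Iyd fell and Maml2 rose. That is 9.09% of members, where 3.76% of all tested names were called, 2.13% lower and 1.63% higher in the knockout. Wfs1 marks CA1, Iyd is listed with CA2 and CA3, and Maml2 with the dentate gyrus, so each field had 1 called member. At an unadjusted p under 0.05 there were 8 members, against 21.3% of all tested names. The 4 libraries of each genotype did not overlap for Wfs1, Iyd, Maml2 and Trpc6, where 11.0% of all tested names were separated in this way. The spread was estimated over all 4 groups, and in a fit of the 8 fructose libraries alone none of the 3 passed (limma adjusted p = 0.0642 for Wfs1 and 0.0759 for Iyd and Maml2).

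On regular water the same contrast called 0 members by limma, and 0.387% of all tested names were called. At an unadjusted p under 0.05 there were 3, Wfs1, Iyd and Maml2, while 5.33% of all tested names reached that level. BgnCtrl and WTCtrl did not overlap for 3 members, Wfs1, Coch and Maml2 (4.01% of all tested names). Beside Wfs1, Iyd and Maml2, the 30 other tested members had log2 folds between -0.20 and 0.36 on water, and the SE over all members was 0.08 to 0.27. The 8 knockout libraries lay apart from the 8 wild-type libraries, over both drinks, for 2 members, Wfs1 and Maml2 (1.19% of all tested names).

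**Figure D2:**
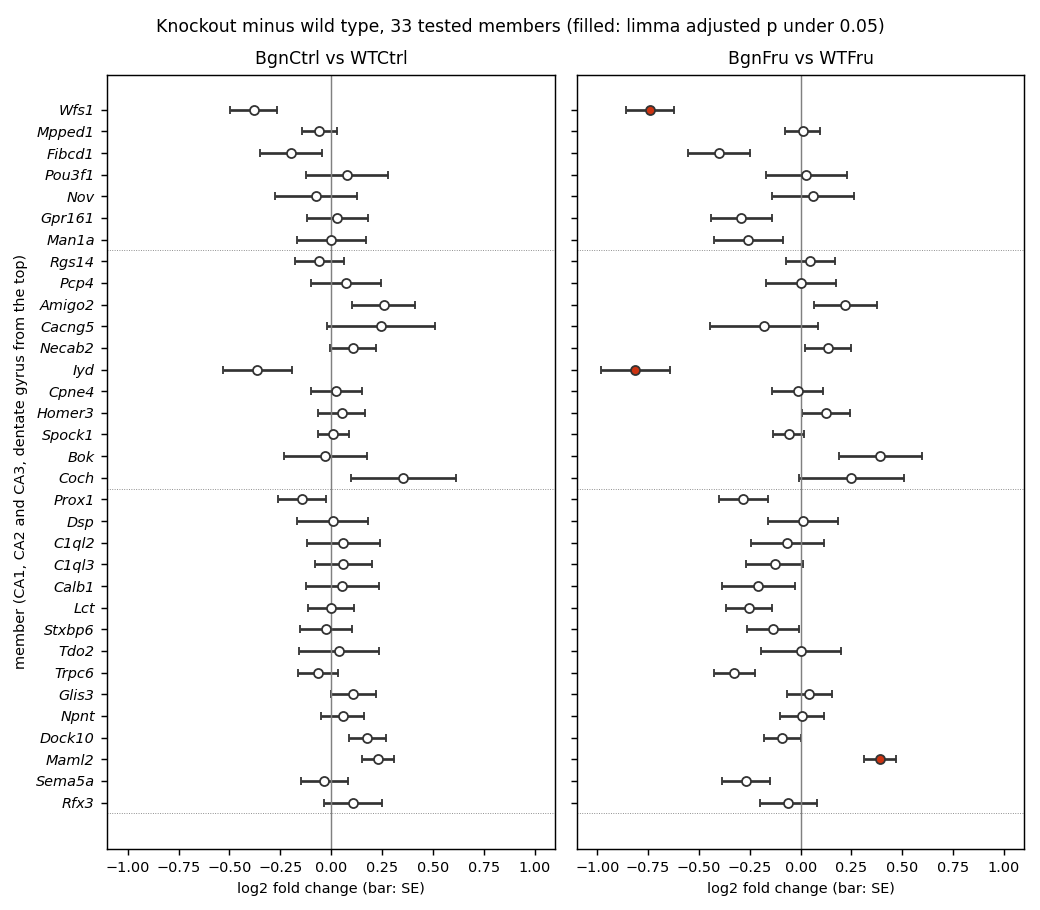
Log2 fold of knockout over wild type for the 33 tested members, on water (left) and on fructose (right), with bars for the SE and filled points for members with a limma adjusted p under 0.05. On fructose Wfs1 (-0.74), Iyd (-0.81) and Maml2 (0.39) are filled, and on water 0 are.

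Wfs1, in CA1, encodes wolframin, a membrane glycoprotein of the endoplasmic reticulum that is mutated in Wolfram syndrome. The gene lies at chr5:36966104-36989205 on the minus strand. In WTCtrl the libraries had 77.0, 84.0, 87.4 and 80.7 FPKM, and in WTFru 79.5, 72.4, 81.9 and 93.8, in order of replicate number. BgnCtrl had 63.8, 63.8, 58.8 and 65.2 FPKM, and BgnFru 57.4, 57.6, 44.0 and 37.8. Every knockout library was below every wild-type library, and every BgnFru library below every BgnCtrl library. On fructose the mean fell by 39.9%, from 81.9 ± 8.91 to 49.2 ± 9.93 FPKM (n = 4 each, SD), which makes the log2 fold -0.74 (SE 0.12, limma adjusted p = 0.00346). On water it was 82.3 ± 4.43 in wild type and 62.9 ± 2.82 in the knockout (n = 4 each, SD), which makes the log2 fold -0.38 (SE 0.12, limma adjusted p = 0.346). A two-sided exact permutation test of Wfs1 alone gave p = 0.0286 on each drink, the smallest value that 4 against 4 libraries allow (0.0343 after adjustment over the 6 such tests made). This test was run only on members that limma had called in these same libraries, a choice that the adjustment leaves out. For groups that do not overlap its p is fixed at 0.0286, so it restates the separation and adds no support.

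Fructose itself left Wfs1 in wild type at a log2 fold of -0.01 (limma adjusted p = 1). In the knockout it was -0.37 (limma unadjusted p = 0.00614, adjusted p = 0.318). The interaction, the difference between those effects, was -0.36 (SE 0.16, limma unadjusted p = 0.0454, adjusted p = 0.999). Wfs1 was the 1 member of 33 below an unadjusted 0.05 there, where 2.91% of all tested names were. After the correction over all names neither the fructose effect in the knockout nor the interaction passed.

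Mpped1, which encodes a metallophosphoesterase domain protein, is the CA1 member of highest level (chr15:83779467-83858494, plus strand). It had 89.95, 86.6, 101 and 89.7 FPKM in WTCtrl, 70.5, 85.1, 88.8 and 92.3 in WTFru, 87.8, 84.3, 86.2 and 93.7 in BgnCtrl, and 89.2, 91.2, 82.4 and 75.3 in BgnFru. The groups overlapped throughout, and the knockout minus wild-type fold was -0.06 on water and 0.01 on fructose (SE 0.09 each). Fibcd1, a membrane receptor of the fibrinogen-domain family (chr2:31813290-31846005, minus strand), had 30.05, 29.3, 35.2 and 39.3 FPKM in WTCtrl and 34.7, 34.5, 41.8 and 30.5 in WTFru. It had 33.2, 29.5, 32.1 and 22.1 in BgnCtrl and 34.8, 26.0, 25.2 and 21.1 in BgnFru. BgnFru replicates 2 to 4 were below all WTFru libraries and replicate 1 was not. The fold on fructose was -0.40 (SE 0.15, limma adjusted p = 0.143). Without BgnFru replicate 1 the gene passed, with a fold of -0.53 and a limma adjusted p of 0.0390, and in replicates 2 to 4 alone with -0.54 and 0.0457. In the 26 other alternatives it was not called. Without BgnFru replicate 4 the fold shrank to -0.30 (limma adjusted p = 0.411). Without BgnCtrl replicate 4 and BgnFru replicates 3 and 4 it was -0.22 (0.668).

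The remaining CA1 members did not pass in any comparison. They are Pou3f1, a POU-domain transcription factor, Nov (Ccn3), a secreted matricellular protein, Gpr161, a receptor of the primary cilium, and Man1a, a Golgi mannosidase. On fructose the knockout minus wild-type fold was 0.03 for Pou3f1, 0.06 for Nov, -0.29 for Gpr161 and -0.26 for Man1a. BgnFru replicate 4 had 36.9 FPKM of Nov and 7.70 of Gpr161, the lowest of all 16 libraries, and BgnFru replicate 3 had the lowest Man1a, 11.7 FPKM. The lowest Nov in wild type, 41.1 FPKM, was in the library labelled WTFru replicate 1.

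**Figure D3:**
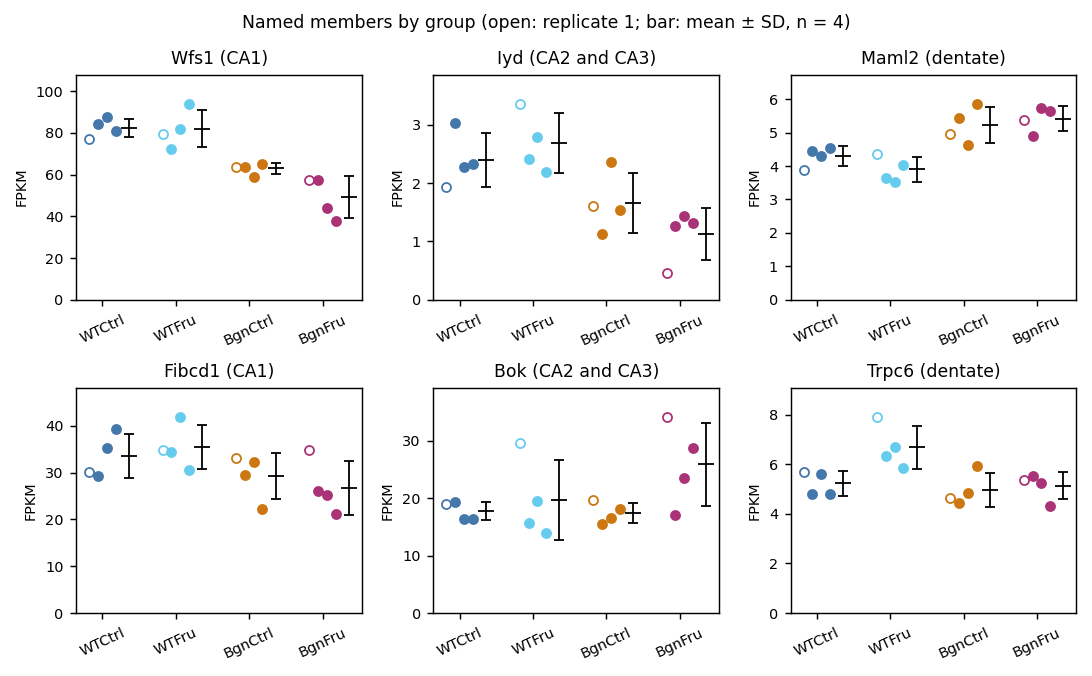
FPKM by group for Wfs1, Fibcd1, Iyd, Bok, Maml2 and Trpc6, with 1 point per library (open for replicate 1) and a bar for the group mean ± SD, n = 4. Wfs1 and Maml2 show no overlap between the 8 knockout and the 8 wild-type libraries, and Iyd is lowest in BgnFru replicate 1 at 0.463 FPKM.

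As a group the 7 CA1 members found had a median log2 fold of -0.26 in BgnFru against WTFru, with 4 lower and 3 higher, beside a median of -0.01 over all tested names, of which 52.5% were lower. A shift of like size was seen in general neuronal lists. Of 13 pan-excitatory markers 12 lay lower (median -0.23), all but Camk2a, which is listed at 0 in WTFru. Of 10 pan-neuronal markers 9 lay lower (median -0.24). On water the median was -0.06, with 5 of 7 lower. In BgnFru against BgnCtrl 7 of 7 lay lower, with a median of -0.17, where 48.2% of all names lay lower, and limma called 0 of the 7. The summed level of the 7 was 281 to 341 FPKM over the wild-type libraries. BgnCtrl replicates had 320, 302, 300 and 278 FPKM, and BgnFru replicates had 317, 295, 248 and 208. The low sums were thus in BgnCtrl replicate 4 and in BgnFru replicates 3 and 4.

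Those 3 libraries also had the highest sums of markers of astrocytes, microglia and endothelial cells, though they were not the only ones above wild type. The 12 astrocyte markers summed to 1627 to 1929 FPKM over the wild-type libraries, to 1730 to 1815 in BgnCtrl replicates 1 to 3, and to 2467 in BgnCtrl replicate 4. BgnFru replicates had 2010, 1929, 2413 and 2547 FPKM. In BgnFru against WTFru 12 of 12 astrocyte markers lay higher (median 0.38), where 47.5% of all tested names lay higher, and 4 rose, beside 1.63% of all tested names, Gfap, Aqp4, Fgfr3 and Gja1, with log2 folds of 0.58, 0.54, 0.62 and 0.42. The 10 microglial markers summed to 191 to 261 FPKM in wild type, and to 355, 334 and 360 in the same 3 libraries. BgnFru replicates 1 and 2, at 275 FPKM each, also lay above the wild-type range. All 10 lay higher in BgnFru than in WTFru (median 0.37) and limma called 0. The 8 endothelial markers found summed to 65.9 to 81.7 FPKM in wild type and to 103, 102 and 103 in those 3 libraries. BgnFru replicates 1 and 2 had 65.3 and 85.5 FPKM. All 8 lay higher in BgnFru than in WTFru (median 0.27) and 0 were called. Oligodendrocyte markers did not set the 3 libraries apart. BgnCtrl replicate 4 and BgnFru replicate 3, with 2246 and 2630 FPKM, lay within the wild-type range of 2020 to 2849. BgnFru replicate 4 lay above it, at 3336 FPKM. No astrocyte or microglial marker was at 0 in any library. Pan-neuronal markers lay lower in 9 of 10 (median -0.24), with 0 called, and BgnFru replicate 4 had their lowest sum, 2702 FPKM against 3249 to 4087 in wild type.

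BgnCtrl replicates 1 to 3, whose astrocyte sums lie within the wild-type range, had 58.8 to 63.8 FPKM of Wfs1, and the wild-type libraries 72.4 to 93.8. Without BgnCtrl replicate 4 and BgnFru replicates 3 and 4, an alternative chosen after the data were seen, the Wfs1 fold on fructose was -0.50 and stayed called (limma adjusted p = 0.0434). Iyd was -1.01 (limma adjusted p = 0.0626) and Maml2 0.33 (0.178), and neither was called. With only 2 BgnFru libraries left, this fit called 60 names in all, against 475 with every library. The libraries left out are those with the lowest CA1 sums in the knockout, so this fit says nothing of how glial and CA1 markers are related, which was not tested.

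**Figure D4:**
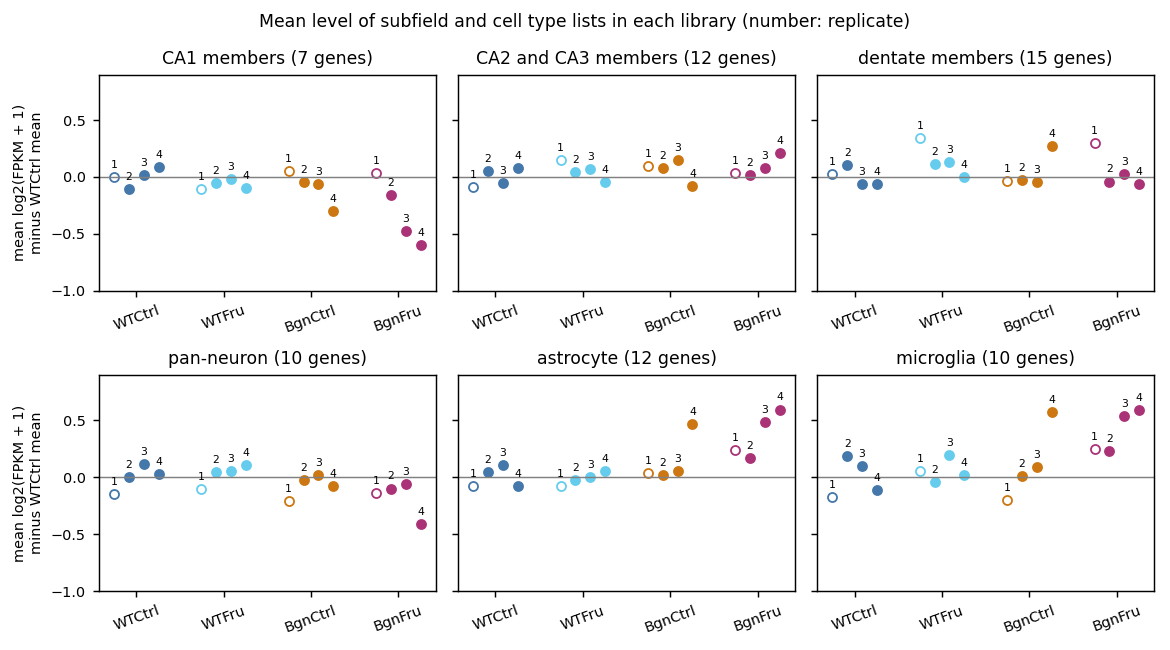
Mean log2(FPKM + 1) of each list in each library, relative to the WTCtrl mean, for the CA1, CA2 and CA3, and dentate members and for pan-neuronal, astrocyte and microglial markers, with the replicate number above each point. BgnCtrl replicate 4 and BgnFru replicates 3 and 4 are low for CA1 members (-0.30, -0.47 and -0.60) and high for astrocyte markers (0.47, 0.49 and 0.60).

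A list of 4 further CA1 genes that are no members, Ndst4, Lefty1, Kcnh7 and Zfp831, lay lower in 4 of 4 in BgnFru against WTFru (median -0.30) and in 3 of 4 in BgnFru against BgnCtrl (median -0.36), with 0 called by limma in either. They summed to 20.2 to 27.2 FPKM in wild type, and to 16.7, 14.7 and 13.0 in BgnCtrl replicate 4 and BgnFru replicates 3 and 4, again the lowest knockout libraries. Of 9 further CA2 and CA3 genes, 9 tested further dentate and mossy cell genes and 8 genes of the ventral hippocampus, limma called 0 in any comparison. Their medians on fructose, knockout minus wild type, were -0.02, -0.08 and 0.12.

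Iyd, the second member that fell, encodes iodotyrosine deiodinase, an enzyme that recovers iodide from iodinated tyrosines and is best known from the thyroid. It lies at chr10:3540240-3554877 on the plus strand. Its level was low throughout, with 1.94, 3.03, 2.28 and 2.34 FPKM in WTCtrl and 3.36, 2.41, 2.78 and 2.19 in WTFru. BgnCtrl had 1.61, 1.13, 2.36 and 1.54, and BgnFru 0.463, 1.27, 1.45 and 1.32. On fructose the genotypes did not overlap, while on water BgnCtrl replicate 3 lay inside the wild-type range. The mean went from 2.69 ± 0.511 in WTFru to 1.12 ± 0.447 FPKM in BgnFru (n = 4 each, SD), which makes the log2 fold -0.81 (SE 0.17, limma adjusted p = 0.0173). With a pseudocount of 0.1, which understates low genes less, the fold was -1.27 and the call stood. On water the fold was -0.36 (limma unadjusted p = 0.0480, adjusted p = 0.934). Without the library labelled WTFru replicate 1 and BgnFru replicate 4 the fold on fructose was -0.78 and the limma adjusted p 0.0751. The exact permutation p of Iyd was 0.0286 on fructose and 0.114 on water, with the limit given for Wfs1.

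Pcp4 (chr16:96467606-96525793, plus strand) overlapped between all groups. It had 233, 330, 258 and 316 FPKM in WTCtrl, 260, 336, 381 and 297 in WTFru, 226, 339, 353 and 286 in BgnCtrl, and 237, 349, 370 and 325 in BgnFru. Replicate 1 was the lowest library of every group, and the knockout minus wild-type fold was 0.07 on water and 0.00 on fructose (SE 0.17 each). In the annotation 19.9% of the 31-base words of Pcp4 are shared with Igsf5, which overlaps it on the same strand, so its level may include reads of that gene.

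Necab2, a neuronal calcium-binding protein of CA2 (chr8:119446719-119472640, plus strand), had 71.1, 79.0, 83.5 and 78.7 FPKM in WTCtrl, 78.4, 77.3, 89.5 and 70.04 in WTFru, 77.4, 82.8, 101 and 77.8 in BgnCtrl, and 71.6, 82.4, 104 and 90.7 in BgnFru. The groups overlapped in every comparison, with folds of 0.11 on water and 0.14 on fructose (SE 0.11 each). Bok, a member of the Bcl-2 family of cell death regulators (chr1:93685660-93695764, plus strand), had 19.0, 19.4, 16.3 and 16.4 FPKM in WTCtrl and 29.6, 15.7, 19.5 and 14.0 in WTFru. It had 19.6, 15.5, 16.5 and 18.1 in BgnCtrl and 34.1, 17.1, 23.6 and 28.7 in BgnFru. The highest values were BgnFru replicates 1 and 4 and the library labelled WTFru replicate 1, and the groups overlapped. In the knockout the fold of fructose over water was 0.51 (SE 0.20, limma unadjusted p = 0.0249, adjusted p = 0.337).

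The other tested CA2 and CA3 members were Rgs14, a regulator of G protein signalling that marks CA2, Amigo2, an adhesion molecule, Cacng5, an auxiliary subunit of AMPA receptors, Cpne4, a copine, Homer3, a postsynaptic scaffold, Spock1, and Coch, a secreted matrix protein. None of the 7 was called in any comparison. On fructose their knockout minus wild-type folds ran from -0.18 for Cacng5 to 0.25 for Coch. Coch had 3.20 ± 0.426 FPKM in WTCtrl and 4.36 ± 0.258 in BgnCtrl (SD, n = 4 each), without overlap, but the limma adjusted p was 1. In BgnFru the same gene spread from 1.77 to 7.29 FPKM. Over the 11 tested CA2 and CA3 members the median fold on fructose was 0.05, with 7 higher and 4 lower, and on water it was 0.05, with 8 higher and 3 lower. Their summed level overlapped between all groups, at 501 to 685 FPKM in wild type, 524 to 674 in BgnCtrl and 572 to 700 in BgnFru.

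**Figure D5:**
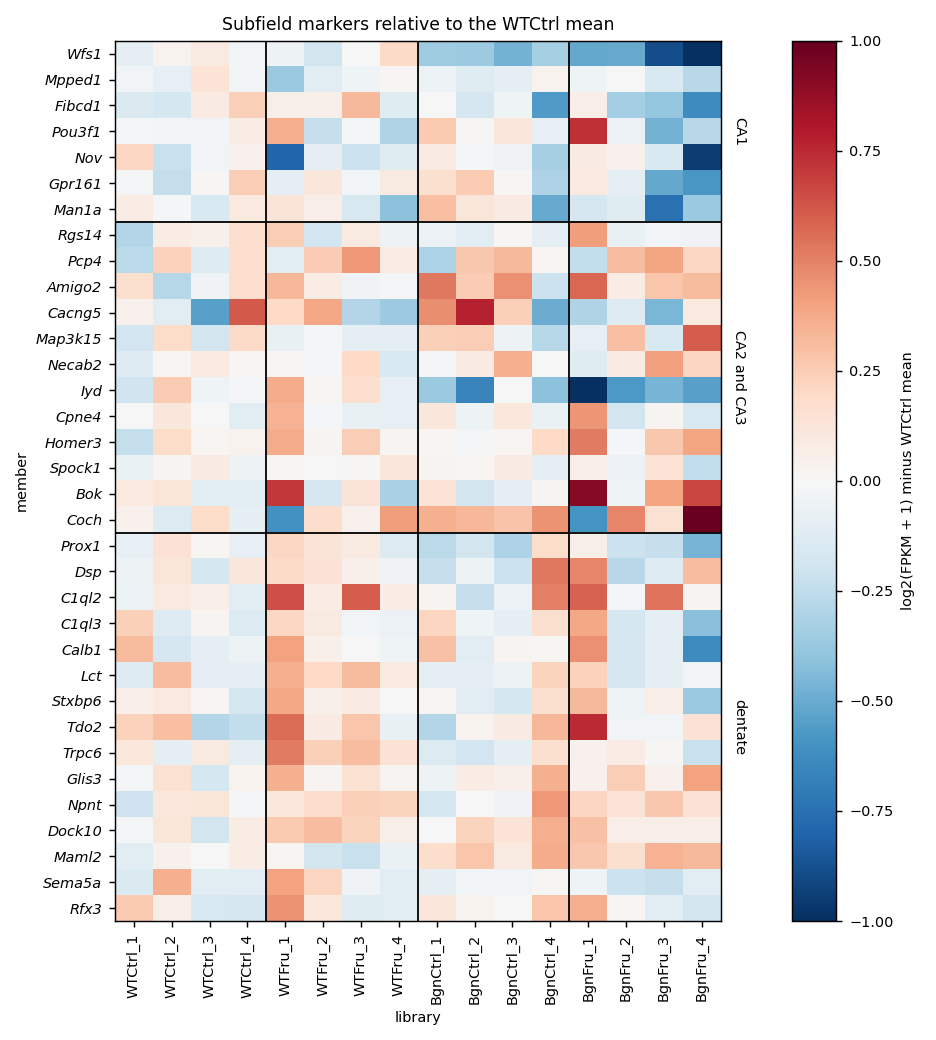
Log2(FPKM + 1) of each member found in each library minus the WTCtrl mean of that member, with colours limited to -1 to 1, libraries in columns by group and members in rows by subfield. Wfs1 and Iyd are blue and Maml2 red across most knockout libraries, and several dentate members are red in the library labelled WTFru replicate 1 and in BgnFru replicate 1.

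Maml2, listed with the dentate gyrus, encodes a coactivator of Notch signalling and lies at chr9:13297957-13709388 on the plus strand. It had 3.88, 4.46, 4.29 and 4.55 FPKM in WTCtrl, 4.37, 3.65, 3.52 and 4.04 in WTFru, 4.96, 5.42, 4.63 and 5.86 in BgnCtrl, and 5.37, 4.89, 5.73 and 5.63 in BgnFru. Every knockout library was above every wild-type library. On fructose the mean rose from 3.90 ± 0.384 to 5.41 ± 0.376 FPKM (n = 4 each, SD), which makes the log2 fold 0.39 (SE 0.08, limma adjusted p = 0.0154). On water the means were 4.29 ± 0.298 and 5.22 ± 0.537 FPKM, a fold of 0.23 (SE 0.08, limma adjusted p = 0.491). The exact permutation p was 0.0286 on each drink, which restates the separation, as for Wfs1. Without WTFru replicate 2 the fold was 0.37 and the limma adjusted p 0.0523.

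Trpc6, a calcium-permeable cation channel of granule cells (chr9:8544142-8680741, plus strand), had 5.69, 4.80, 5.59 and 4.81 FPKM in WTCtrl and 7.89, 6.32, 6.68 and 5.86 in WTFru. It had 4.65, 4.43, 4.83 and 5.95 in BgnCtrl and 5.38, 5.53, 5.26 and 4.32 in BgnFru. All 4 WTFru libraries lay above all WTCtrl and all BgnFru libraries. The fold was -0.33 in BgnFru against WTFru (SE 0.10, limma adjusted p = 0.0761) and 0.30 in WTFru against WTCtrl (SE 0.10, limma unadjusted p = 0.00803, adjusted p = 1). These folds share the WTFru libraries. With a term for replicate 1 the first of them passed (limma adjusted p = 0.0272), and without the library labelled WTFru replicate 1 it was -0.25 (0.158).

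C1ql2 and C1ql3 encode secreted proteins of the C1q family that granule cells release at their synapses. C1ql2 (chr1:120340582-120343174, plus strand) had 34.4, 38.6, 37.6 and 33.4 FPKM in WTCtrl, 56.7, 37.9, 55.3 and 37.9 in WTFru, 36.7, 30.4, 34.5 and 51.3 in BgnCtrl, and 54.5, 35.6, 52.7 and 36.6 in BgnFru. In both fructose groups replicates 1 and 3 were above 50 FPKM and replicates 2 and 4 below 40, and on water BgnCtrl replicate 4 alone was above 50. The fold of WTFru over WTCtrl was 0.35 (SE 0.18, limma unadjusted p = 0.0700, adjusted p = 1). C1ql3 (chr2:13003457-13011806, minus strand) had 75.3, 58.1, 64.6 and 57.5 FPKM in WTCtrl, 73.6, 67.7, 62.1 and 60.8 in WTFru, 73.9, 61.8, 59.3 and 70.9 in BgnCtrl, and 83.5, 56.2, 59.2 and 47.3 in BgnFru. Replicate 1 was the highest library of each group, and the folds between groups ran from -0.13 to 0.06. The level of C1ql3 is uncertain, since 62.8% of its 31-base words are shared with genes annotated on the opposite strand and no source used here says whether the counting took account of strand.

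The other dentate members were not called in any comparison. They include Prox1, the homeobox factor that maintains granule cell identity, Calb1, the calcium buffer calbindin, Dsp, the junction protein desmoplakin, Tdo2, a tryptophan-degrading enzyme, and Lct, lactase. They also include Dock10, a guanine nucleotide exchange factor, Sema5a, a semaphorin, Npnt, the matrix protein nephronectin, Stxbp6, a syntaxin-binding protein, and the transcription factors Glis3 and Rfx3. On fructose Prox1 was 16.01 ± 1.68 FPKM in wild type and 13.0 ± 2.10 in the knockout (SD, n = 4 each), a fold of -0.28 (limma unadjusted p = 0.0324, adjusted p = 0.187). Lct had -0.25 and Sema5a -0.27, with limma unadjusted p of 0.0393 and 0.0366 and adjusted p of 0.207 for Lct and 0.1998 for Sema5a. Calb1 was lowest in BgnFru replicate 4, at 25.1 FPKM, and highest in BgnFru replicate 1, at 54.3. Over the 15 dentate members the median fold on fructose was -0.09, with 11 lower and 4 higher, and on water 0.06, with 5 lower and 10 higher.

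Fructose against water was compared within each genotype to ask what the drink alone did to the markers. These comparisons share their groups with those between genotypes. In wild type limma called 0 of the 33 members and 0.00791% of all tested names. That is 1 name, Camk2a, listed at 0 in all WTFru libraries, which can be a failed estimate. At an unadjusted p under 0.05 there were 3 members, Trpc6, Dock10 and Lct (2.08% of all tested names). Trpc6 was the 1 member without overlap (1.87% of all tested names). Of the dentate members 14 of 15 lay higher on fructose, with a median log2 fold of 0.13, where 54.3% of all names lay higher with a median of 0.01. Their mean log2 level relative to WTCtrl was 0.34 in the library labelled WTFru replicate 1 and 0.11, 0.13 and 0.00 in replicates 2 to 4. Without that library 13 of 15 lay higher and the median was 0.05. With all libraries the CA1 members had a median of -0.05 with 2 of 7 higher, and the CA2 and CA3 members 0.04 with 10 of 11 higher. Of the 9 tested further dentate and mossy cell genes, 5 lay higher (median 0.05).

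In the knockout limma called 0 of the 33 members and 0% of all tested names, with 2 members, Wfs1 and Bok, at an unadjusted p under 0.05 (12.9% of all tested names). Wfs1 was the 1 member without overlap (3.99% of all tested names). The dentate members had a median fold of 0.02 with 8 of 15 higher, and the CA2 and CA3 members 0.04 with 7 of 11 higher. For the interaction limma called 0 members, where 0.00791% of all tested names were called, again Camk2a alone. Folds of the members in the interaction ran from -0.45 for Iyd to 0.42 for Bok, with SEs of 0.11 to 0.38, and 25 of 33 were below 0, against 52.3% of all names.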

How the data were processed

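Poly(A)-selected RNA was sequenced on an Illumina HiSeq from fragments of 200 to 400 base pairs, per the labels' protocols. The genome build was mm10 and the tools named are TopHat, Bowtie, Cufflinks and Cuffdiff, per the submitters' processing notes. Versions, annotation, strand setting and normalization are not given in the sources used here. The authors deposited FPKM for 27670 loci in 16 libraries, and 4 columns of group FPKM were not used. Loci without a name (4269) were left out, and loci of 1 name were summed. Depth cannot be read from FPKM.

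Tests used limma 3.58.1 in R 4.3.3 on log2(FPKM + 1), for names with a mean of at least 1 FPKM, in a model of 4 group means with a mean-variance trend and Benjamini-Hochberg adjustment over all 12648 names. The model was tested on simulated data. The called members were also tested singly by exact two-sided permutation of FPKM (scipy 1.17.1). The members and gene lists were chosen with earlier results of these data known. Values in every library are given for members called in any comparison and, in each subfield, the 2 of highest mean FPKM and the 2 of smallest unadjusted p, 11 genes in all. Genes of the other lists are named when called. Some genes are not reported here. Other genes were named after their values were seen. Positions are from GENCODE (mm10) and promoters from RefSeq GRCm38.p6, where 30 of 35 members matched.

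Same-numbered libraries deviated together between drinks (correlations of 0.118 to 0.699 in wild type and 0.197 to 0.612 in the knockout), which meets the rule for pairing, but without replicate 1 the correlations were 0.00 to 0.14 and -0.04 to 0.31. Between genotypes not every pair passed 0.1. Alternatives were quantile and median-ratio scaling, a pseudocount of 0.1, no filter or one of 5 FPKM, a replicate block, a term for replicate 1, replicates 2 to 4 only, the highest locus of a name, only the groups compared, and leaving out libraries.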

Additional observations from a re-analysis of the deposited data

Results flagged for a closer look

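In 9 of 136 sets of 4 libraries (34 members in 4 groups) the highest library lay far from the other 3 by Dixon's ratio at the 95% level. At this level chance flags about 5% of such sets, or 6.8 here. The sets share libraries and all 9 flags were at the high end, so 9 against 6.8 is a rough comparison only. No flag is read as a result. In WTCtrl these were Pou3f1 in replicate 4 (17.6 FPKM, others up to 16.5), Lct in replicate 2 (8.05, others up to 5.85) and Sema5a in replicate 2 (18.0, others up to 12.8). In WTFru they were Map3k15 in replicate 2 (0.601 FPKM, others up to 0.529), Spock1 in replicate 4 (84.2, others up to 78.2) and Cpne4 in the library labelled WTFru replicate 1 (46.8, others up to 36.1). In BgnCtrl it was Lct in replicate 4 (7.53 FPKM, others up to 6.02). In BgnFru they were Rgs14 (53.7 FPKM, others up to 39.1) and Dock10 (18.8, others up to 15.9), both in replicate 1. None of the 3 called members is among them.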

How the results depend on the processing

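In BgnFru against WTFru 3 members were called. The number was 1 (Wfs1) with a filter of 5 FPKM, which leaves Iyd and Maml2 untested, 1 (Wfs1) without BgnCtrl replicate 4 and BgnFru replicates 3 and 4, and 0 when only the compared groups entered the fit. In that last fit the limma adjusted p was 0.0642 for Wfs1 and 0.0759 for Iyd and for Maml2, and 87 names were called in place of 475. The cause was not tested. Leaving out each library in turn gave 2 to 4 members. The fold of Wfs1 then ran from -0.82 to -0.62, that of Iyd from -0.89 to -0.64 and that of Maml2 from 0.35 to 0.43. Without the library labelled WTFru replicate 1 and BgnFru replicate 4 Iyd was at -0.78 with an adjusted p of 0.0751. In every other comparison 0 members were called under every alternative run. With the replicate block 4 members were called on fructose, Trpc6 (limma adjusted p = 0.0324) joining the 3, while the number of names called went from 475 to 2483. The block changed no other call of a named member. Over the named members and comparisons, 1496 alternative values kept direction and call, or moved by less than their SE, 7 lost a call, 4 gained one and 12 uncalled folds changed sign by more than their SE. No called fold changed sign. Depth per library is unknown, so the precision of low members such as Iyd is known only from the spread between libraries.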

Other observations

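Camk2a, the alpha subunit of a calcium-dependent kinase of forebrain excitatory neurons, is listed at 0 in all 4 WTFru libraries and at 781 to 1671 FPKM in the other 12. No other gene of the marker lists is at 0 in any library, and Slc17a7, the vesicular glutamate transporter of the same neurons, had 598 to 690 FPKM in WTFru. No fold is given for Camk2a, since a listed 0 in FPKM can be a failed estimate.

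The 10 meningeal and fibroblast markers all had higher means in the knockout on water (median log2 fold 0.43) and on fructose (0.49), and limma called 0 of them in each. Of all tested names 49.4% and 47.5% lay higher. On water 3 of the 10 were without overlap (4.01% of all tested names), and on fructose 0 were (11.0%). Their sums ran from 35.3 to 166 FPKM in WTFru and from 82.7 to 359 in BgnFru. Markers of 1 tissue vary together, so they are not 10 separate observations. Of 11 oligodendrocyte markers, 11 lay higher on fructose than on water in wild type (median 0.09) and 11 in the knockout (0.28), again with 0 called. Of all tested names 54.3% and 51.8% lay higher.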
